A study of Sus scrofa with 4 samples.

Results

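The genes for voltage-gated sodium and calcium channels and for potassium channels were compared between 3 kinds of porcine cells. The set held every row of the count table whose pig symbol began with KCN or CACN, or was SCN followed by a number and A or B. These were 134 of 25880 genes, 123 of them named by Ensembl identifier and 11 by position on the Sscrofa11.1 assembly. Those named by position included CACNA1C, KCNA5, KCNA6, KCNJ12, KCNK12, SCN3B and SCN4B. At least 1 count was found for 124, and 84 reached 1 CPM (a count scaled to library size) in at least 1 library. They are described below by role. The other 50 are given as numbers, and 10 of them had no count in any library. Of these 10, 3 lie on unplaced scaffolds, where all 1522 rows of the table held 0 counts, so their zeros are not read as levels.

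The iPSCs (n = 2, clones 1 and 2, passage 3) were set against iNSLCs (n = 1, passage 1), which are neural stem cell-like cells, and against untransfected fibroblasts (n = 1, passage 1). All cultures came from the ear skin fibroblasts of 1 post-neonatal pig. The iNSLCs were colonies in NSM, a medium used for naive-state cells, after transfection of episomal vectors that carried EGFP, a dominant-negative mouse p53, and OCT4, SOX2, KLF4, KLF2, L-MYC, LIN28, NANOG, GLIS1 and KDM4D. For marmoset cells, the paper describes this induction on mouse embryonic feeder cells. It does not state whether the pig iNSLC library held feeder RNA. The iPSC clones carried the same vector history and grew on feeder cells in ESM with IWP2, TGF-β1 and activin A. Loss of the vectors was examined only at later passages. These iPSCs were picked colonies, so that clone, medium and passage cannot be told apart from cell type. The clones were the only replicates, and p-values therefore rest on the spread between 2 clones of 1 animal, with 1 residual degree of freedom. The test moderates this spread for each gene toward a trend over all genes, and small p-values depend on that. The lone libraries were assumed to vary like the clones.

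Voltage-gated channels are pores that open when the membrane is depolarized. Sodium channels carry the upstroke of the action potential, calcium channels couple depolarization to contraction, secretion and gene expression, and potassium channels end the depolarization or set the resting potential. Each pore-forming subunit works with auxiliary subunits that change its gating or bring it to the surface, and the tandem-pore domain and inward rectifier potassium channels conduct without a voltage sensor.

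Total counts were 21640374 and 41296933 in iPSC clones 1 and 2, 25784594 in iNSLCs and 62421521 in fibroblasts. Levels are CPM after TMM scaling, and a gene on a chromosome with 0 counts could have lain at up to 0.127 and 0.0656 CPM in the clones, 0.105 CPM in iNSLCs and 0.0648 CPM in fibroblasts (3 counts). TMM placed every iPSC to fibroblast ratio 0.57 lower on the log2 scale, and every iNSLC to fibroblast ratio 0.58 lower, than total counts would. The labels were checked with markers. POU5F1 (OCT4) stood at 295 and 275 CPM in iPSCs, 40.5 CPM in iNSLCs and 0 CPM in fibroblasts. The vectors carried OCT4, so reads from them and from the cells' own gene cannot be told apart here. The 4 neural stem cell markers did not set the iNSLC library apart from the clones, with sums of 564 and 632 CPM in iPSCs and 633 CPM in iNSLCs, against 52.4 CPM in fibroblasts. Of them, MSI1 and FABP7 were highest in iNSLCs and NES in iPSCs, while PAX6 had 2.32 and 6.71 CPM in iPSCs and 14.6 CPM in iNSLCs, against 21.5 CPM in fibroblasts. The 7 fibroblast markers found summed to 853 and 876 CPM in iPSCs, 52592 CPM in iNSLCs and 137288 CPM in fibroblasts, with none at 0, so that the iNSLC library held high levels of fibroblast transcripts. In such bulk libraries, fewer cells of a type and less RNA per cell cannot be told apart. Whether reads from feeder cells were counted in any library was not examined. The strand setting of the counting is not given in the labels or methods, and reads from a gene and an overlapping gene on the opposite strand therefore cannot be separated.

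Under TMM scaling, the channel genes summed to a like level in all libraries but were spread over more genes in iPSCs and iNSLCs. They summed to 716 and 770 CPM in iPSCs, 653 CPM in iNSLCs and 720 CPM in fibroblasts. Without that scaling, they made up 0.0783% and 0.0853% of the counts in iPSCs and 0.0726% in iNSLCs, against 0.0534% in fibroblasts. With TMM, 72 and 71 members reached 1 CPM in iPSCs and 62 in iNSLCs, against 35 in fibroblasts (32 with total counts). Over all genes, 50.0% and 49.6% reached 1 CPM in iPSCs and 50.5% in iNSLCs, against 45.4% in fibroblasts. The 4 most abundant channel genes held 40.2% and 42.6% of the channel CPM in iPSCs and 30.8% in iNSLCs, against 63.1% in fibroblasts. Such sums weigh long transcripts more.

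Per kilobase of exon, the leading genes differed between the cells. In iPSCs they were KCNJ3 (28.9 CPM per kb), KCNS3 (15.4 CPM per kb) and CACNA2D1 (11.9 CPM per kb). In iNSLCs they were KCNJ3 (13.2 CPM per kb), CACNA2D2 (8.87 CPM per kb) and KCNK1 (6.32 CPM per kb). In fibroblasts they were CACNA2D1 (18.3 CPM per kb), CACNA1H (12.7 CPM per kb), CACNA1C (11.7 CPM per kb) and KCNJ2 (11.4 CPM per kb). Of the 84 genes, 37 were most abundant in iPSCs (mean of the clones), 28 in iNSLCs and 19 in fibroblasts.

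In the edgeR test, 104 members entered. Against fibroblasts, 49 were higher and 19 lower in iPSCs, which is 47.1% and 18.3% of those tested, beside 29.6% and 28.2% of all 15739 genes tested. With total counts, 58 members were higher and 13 lower, beside 46.2% and 17.5% of all genes. The median log2 ratio was 1.70 over the members and 0.13 over all genes, with libraries under 3 counts held at 3 counts. Against iNSLCs, 14 members were higher and 15 lower in iPSCs, or 13.5% and 14.4% of those tested, beside 13.2% and 14.2% of all genes. These last shares are near those of all genes. The numbers lower depended on the test: DESeq2 called 12 members lower against fibroblasts and 9 against iNSLCs. These were 11.5% and 8.65% of those tested, beside 23.2% and 10.4% of all genes with DESeq2. With clone 1 left out, 10 and 5 members were at least 4-fold lower, and with clone 2 left out, 12 and 6, counted by size with no test. Shares of all genes were not counted for these sizes. A member that was low in every library could not enter the test, so these counts do not speak for the whole family. Both comparisons share the iPSC clones.

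Between iNSLCs and fibroblasts, with 1 library each, no test was made. Of 68 members at 1 CPM in either library, a difference of 4-fold or more was found in 51, of which 37 were higher and 14 lower in iNSLCs, or 54.4% and 20.6%, beside 15.4% and 8.48% of 13473 genes. With total counts the number lower was 8. With 10 CPM required in the higher library, 11 were higher and 7 lower. Shares of all genes were not counted under these other rules, so these numbers have no background beside them.

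**Figure D1:**
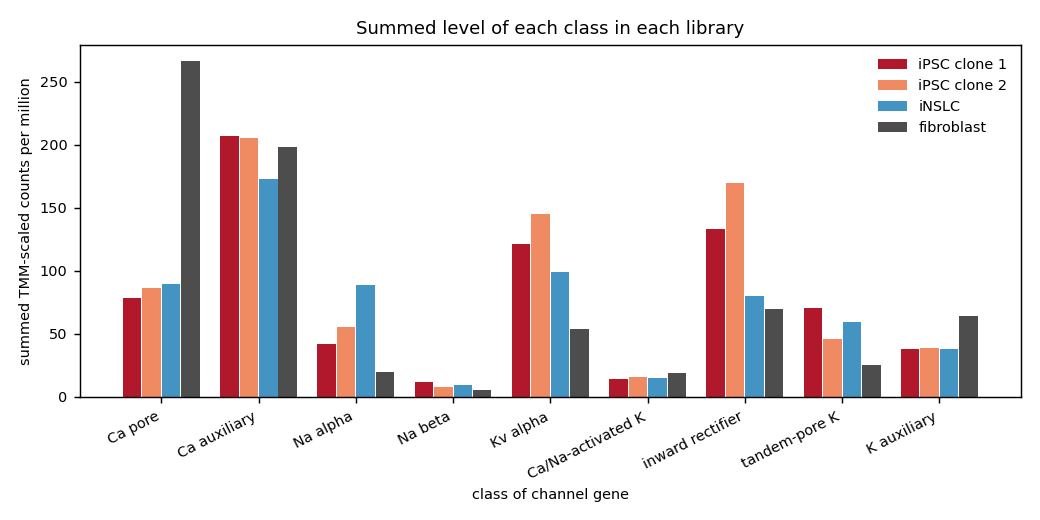
Summed level of the members of each class of channel (y axis, TMM-scaled CPM, from 0) in iPSC clone 1, iPSC clone 2, iNSLCs and fibroblasts. The bar of calcium pore subunits stands highest in fibroblasts (266 CPM), that of sodium alpha subunits in iNSLCs (88.9 CPM), and those of inward rectifiers in the iPSC clones (133 and 170 CPM).

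Calcium channel pore subunits were the class in which fibroblasts held the most RNA. The class summed to 78.5 and 86.4 CPM in iPSCs and 89.4 CPM in iNSLCs, against 266 CPM in fibroblasts. Of the 8 members at 1 CPM, iPSCs had 3 higher and 3 lower than fibroblasts. These calls were 33.3% and 33.3% of the 9 tested, beside 29.6% and 28.2% of all genes. The low-voltage T-type gene CACNA1H (chr3:40633235-40694815) had 32.4 and 35.0 CPM in iPSCs and 9.0 CPM in iNSLCs, against 159 CPM in fibroblasts. It was 4.72-fold lower in iPSCs than in fibroblasts (log2 ratio -2.24 ± 0.12 SE, edgeR adjusted p = 0.000694) and 3.75-fold higher than in iNSLCs (edgeR adjusted p = 0.00564). Its level was therefore lowest in iNSLCs, at 17.7-fold less than in fibroblasts (95% counting interval 15.6 to 20.1).

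CACNA1C (chr5:69271053-69448130), the L-type pore of heart and smooth muscle, had 5.45 and 6.10 CPM in iPSCs and 16.4 CPM in iNSLCs, against 76.4 CPM in fibroblasts. It was 13.2-fold lower in iPSCs than in fibroblasts (log2 ratio -3.72 ± 0.16 SE, edgeR adjusted p = 0.000509) and 2.84-fold lower than in iNSLCs (edgeR adjusted p = 0.0104). The other L-type gene to change, CACNA1D, had 1.82 and 1.51 CPM in iPSCs and 2.02 CPM in iNSLCs, against 10.6 CPM in fibroblasts (6.37-fold lower in iPSCs than in fibroblasts, edgeR adjusted p = 0.00293). Hence both L-type genes were lower in the clones than in fibroblasts, and CACNA1C was also lower than in iNSLCs. CACNA1S, the L-type pore of skeletal muscle, had at most 1.73 CPM and was not called in either comparison. The 7 smooth muscle and pericyte markers summed to 221 and 212 CPM in iPSCs and 70.2 CPM in iNSLCs, against 2825 CPM in fibroblasts, with none at 0. ACTA2 made up most of the fibroblast sum, and TAGLN, CNN1, DES and CSPG4 were also highest there. RGS5, a pericyte marker, ran the other way, with 59.0 and 38.2 CPM in iPSCs and 13.9 CPM in iNSLCs, against 0.0432 CPM in fibroblasts. MYH11 had 10.5 and 5.86 CPM in iPSCs and 0.733 CPM in iNSLCs, against 5.70 CPM in fibroblasts. The part of these markers in the result was not tested.

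Of the remaining pores, CACNA1A, CACNA1E and CACNA1I were called higher in iPSCs than in fibroblasts. CACNA1A, the P/Q-type pore of presynaptic terminals, had 20.0 and 23.1 CPM in iPSCs and 9.0 CPM in iNSLCs, against 3.69 CPM in fibroblasts. It was higher in iPSCs than in fibroblasts (5.84-fold, edgeR adjusted p = 0.00209) and than in iNSLCs (2.40-fold, edgeR adjusted p = 0.0245). CACNA1E, the R-type pore, had 1.35 and 1.36 CPM in iPSCs and 4.61 CPM in iNSLCs, against 0.130 CPM in fibroblasts. CACNA1E was thus 10.4-fold higher in iPSCs than in fibroblasts (edgeR adjusted p = 0.0141) but 3.40-fold lower than in iNSLCs (edgeR adjusted p = 0.0310, a call that DESeq2 did not make). The T-type gene CACNA1G had 15.6 and 16.6 CPM in iPSCs and 44.7 CPM in iNSLCs, against 13.6 CPM in fibroblasts. It was lower in iPSCs than in iNSLCs (2.78-fold, edgeR adjusted p = 0.00901) and was not called against fibroblasts under TMM scaling, although with total counts it was called higher. CACNA1I, the remaining T-type gene, was between 1.40 and 2.27 CPM in iPSCs and iNSLCs, against 0.0864 CPM, or 4 counts, in fibroblasts. It was 16.4-fold higher in iPSCs than in fibroblasts (edgeR adjusted p = 0.0112). The T-type genes thus differed in their order, with CACNA1H highest in fibroblasts and CACNA1G and CACNA1I in iNSLCs.

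Among the auxiliary subunits of calcium channels, iPSCs had 9 of 13 higher and 1 lower than fibroblasts. These calls were 64.3% and 7.14% of the 14 tested, beside 29.6% and 28.2% of all genes. CACNA2D1 (chr9:97781051-98266969), an alpha2delta subunit that brings channels to the membrane, had 103 and 98.1 CPM in iPSCs and 47.7 CPM in iNSLCs, against 155 CPM in fibroblasts. It was 1.54-fold lower in iPSCs than in fibroblasts (edgeR adjusted p = 0.0104), a difference no longer called with total counts, and 2.11-fold higher than in iNSLCs (edgeR adjusted p = 0.00993). Its relative CACNA2D2 (chr13:32845115-32988840) had 17.7 and 22.9 CPM in iPSCs and 50.2 CPM in iNSLCs, against 6.15 CPM in fibroblasts. CACNA2D2 was higher in iPSCs than in fibroblasts (3.30-fold, edgeR adjusted p = 0.00589) and lower than in iNSLCs (2.48-fold, edgeR adjusted p = 0.0203). The pair therefore stood in opposite order across the cells. CACNA2D4, known from the retina, had 6.04 and 2.82 CPM in iPSCs and 1.81 CPM in iNSLCs, against 0 CPM in fibroblasts. With fibroblasts held at 3 counts, the mean of the clones was 68.4-fold higher (edgeR adjusted p = 0.0111). The clones differed in CACNA2D4, which overlaps LRTM2 on the opposite strand. CACNA2D3 was 2.72-fold higher in iPSCs than in fibroblasts (edgeR adjusted p = 0.0452), a call that DESeq2 did not make.

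The beta subunits are cytoplasmic partners that set surface expression. CACNB3 had 34.7 and 30.0 CPM in iPSCs and 26.7 CPM in iNSLCs, against 16.4 CPM in fibroblasts (1.97-fold higher in iPSCs than in fibroblasts, edgeR adjusted p = 0.0118). It overlaps DDX23 on the opposite strand, which had 9735 counts. CACNB4 had 2.20 and 1.46 CPM in iPSCs and 1.33 CPM in iNSLCs, against 0 CPM in fibroblasts. It was 28.2-fold higher in iPSCs with fibroblasts held at 3 counts (edgeR adjusted p = 0.00867). CACNB2 was higher in iPSCs than in fibroblasts by 7.88-fold (edgeR adjusted p = 0.0102), and CACNB1, with 9.33 and 9.66 CPM in iPSCs and 14.2 CPM in iNSLCs, against 6.69 CPM in fibroblasts, was called only with total counts. No beta subunit was called between iPSCs and iNSLCs.

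The CACNG genes carry a calcium channel name, but CACNG4, CACNG5, CACNG7 and CACNG8 encode proteins known chiefly as AMPA receptor auxiliary subunits. CACNG7 had 22.8 and 28.2 CPM in iPSCs and 8.90 CPM in iNSLCs, against 10.6 CPM in fibroblasts, and was higher in iPSCs than in fibroblasts (2.41-fold, edgeR adjusted p = 0.0111) and iNSLCs (2.86-fold, edgeR adjusted p = 0.0195). CACNG8 had 2.28 and 1.68 CPM in iPSCs, 0.0698 CPM in iNSLCs and 0.410 CPM in fibroblasts. The ratio of iPSC to iNSLC counts was 27.0 (95% counting interval 7.33 to 226, edgeR adjusted p = 0.0303), from 2 counts in iNSLCs, and the 4.83-fold difference from fibroblasts (edgeR adjusted p = 0.0263) was not called by DESeq2. CACNG6, their neighbour on chromosome 6 and a relative of the muscle gamma subunit, had 3.42 and 2.95 CPM in iPSCs and 8.27 CPM in iNSLCs, against 0.626 CPM in fibroblasts. CACNG6 was higher in iPSCs than in fibroblasts (5.09-fold, edgeR adjusted p = 0.0110) but lower than in iNSLCs (2.60-fold, edgeR adjusted p = 0.0345, not called by DESeq2). These 3 adjacent genes thus did not follow 1 order. CACNG4 and CACNG5 were highest in iNSLCs, at 3.35 and 1.61 CPM, and were called against fibroblasts only with total counts.

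**Figure D2:**
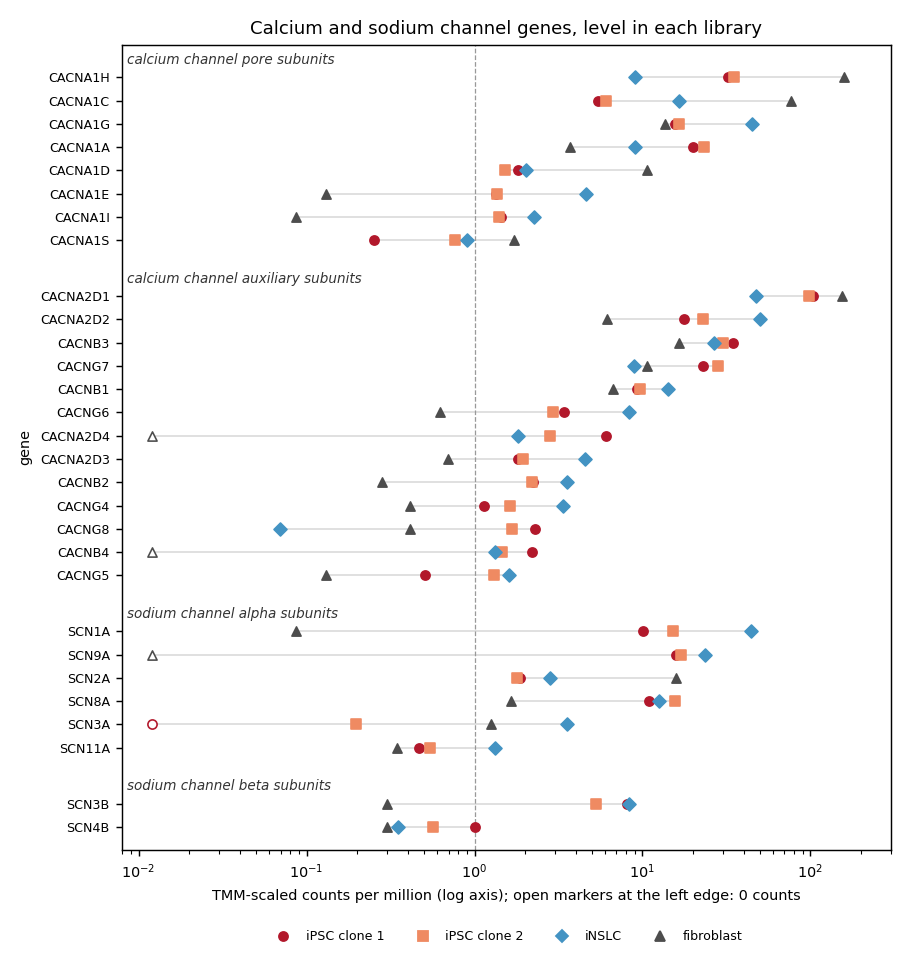
Level of each calcium and sodium channel gene reported here at 1 CPM or more in any library (x axis, TMM-scaled CPM, log axis, 1 row per gene grouped by role) in iPSC clone 1, iPSC clone 2, iNSLCs and fibroblasts. CACNA1H (159 CPM) and CACNA1C (76.4 CPM) have their fibroblast marker at the far right, SCN1A (44.3 CPM) has its iNSLC marker there, and open markers show 0 counts, as for SCN9A in fibroblasts.

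Sodium channel alpha subunits summed to 41.7 and 55.1 CPM in iPSCs and 88.9 CPM in iNSLCs, against 19.4 CPM in fibroblasts. In iPSCs, 4 of the 7 at 1 CPM were higher and 2 lower than in fibroblasts. These calls were 44.4% and 22.2% of the 9 tested, beside 29.6% and 28.2% of all genes. SCN1A (chr15:72529874-72696610), a brain sodium channel linked to Dravet syndrome in humans, had 10.1 and 15.2 CPM in iPSCs and 44.3 CPM in iNSLCs, against 0.0864 CPM in fibroblasts. It was 146-fold higher in iPSCs than in fibroblasts (log2 ratio 7.16 ± 0.62 SE, edgeR adjusted p = 0.00179), from 4 counts in fibroblasts. SCN1A was 3.50-fold lower in iPSCs than in iNSLCs (edgeR adjusted p = 0.0195). SCN9A, the sodium channel of pain-sensing neurons, had 15.8 and 16.9 CPM in iPSCs and 23.5 CPM in iNSLCs, against 0 CPM in fibroblasts. The difference from fibroblasts was 252-fold with fibroblasts held at 3 counts (edgeR adjusted p = 0.000625). That from iNSLCs was not called (edgeR adjusted p = 0.104). SCN8A, the channel of axon initial segments and nodes, had 10.9 and 15.7 CPM in iPSCs and 12.6 CPM in iNSLCs, against 1.66 CPM in fibroblasts (8.01-fold higher in iPSCs than in fibroblasts, edgeR adjusted p = 0.00442).

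SCN2A and SCN3A, which are also brain sodium channels, did not follow SCN1A and SCN9A. SCN2A had 1.86 and 1.79 CPM in iPSCs and 2.83 CPM in iNSLCs, against 15.8 CPM in fibroblasts. It was 8.65-fold lower in iPSCs than in fibroblasts (edgeR adjusted p = 0.00152). SCN3A had 0 and 0.197 CPM in iPSCs and 3.53 CPM in iNSLCs, against 1.25 CPM in fibroblasts. Its iNSLC to iPSC ratio was 27.2 (95% counting interval 13.8 to 61.2, edgeR adjusted p = 0.0186) and its fibroblast to iPSC ratio 9.66 (95% counting interval 4.75 to 22.2, edgeR adjusted p = 0.0311, not called by DESeq2). All 4 genes lie with SCN7A in 1 cluster on chromosome 15, between 71717333 (the start of SCN3A) and 73026656 (the end of SCN7A), so neighbouring sodium channel genes had opposite orders: SCN2A was highest in fibroblasts, where SCN9A had no count. Reads shared between such paralogs may have been lost or split in counting. SCN7A stayed at or below 0.219 CPM.

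SCN11A, a channel of sensory neurons, reached 1 CPM only in iNSLCs (1.33 CPM) and was not called.

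The beta subunits of sodium channels are cell adhesion-like proteins that adjust gating. SCN3B had 8.07 and 5.27 CPM in iPSCs and 8.31 CPM in iNSLCs, against 0.302 CPM in fibroblasts, and was 22.1-fold higher in iPSCs than in fibroblasts (edgeR adjusted p = 0.00495). It overlaps GRAMD1B on the opposite strand. SCN4B had 1.01 and 0.568 CPM in iPSCs and 0.349 CPM in iNSLCs, against 0.302 CPM in fibroblasts, and was not called.

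Inward rectifiers included the most abundant channel gene of the iPSCs. KCNJ3 (chr15:62264268-62416294), a G protein-gated inward rectifier, had 111 and 146 CPM in iPSCs and 58.6 CPM in iNSLCs, against 0.0216 CPM, or 1 count, in fibroblasts. The ratio of iPSC to fibroblast counts was 6190 (95% counting interval 1111 to 244534, edgeR adjusted p = 0.000481), and KCNJ3 was 2.19-fold higher in iPSCs than in iNSLCs (edgeR adjusted p = 0.0284). KCNJ5 (chr9:55836701-55864941) is the partner with which KCNJ3 forms the acetylcholine-activated channel of the atrium. KCNJ5 had 7.94 and 10.3 CPM in iPSCs and 6.49 CPM in iNSLCs, against 0 CPM in fibroblasts. It was 141-fold higher in iPSCs with fibroblasts held at 3 counts (edgeR adjusted p = 0.00154). KCNJ5 was not called between iPSCs and iNSLCs (edgeR adjusted p = 0.262). Per kilobase, KCNJ3 stood at 24.9 and 32.8 CPM per kb in iPSCs and KCNJ5 at 1.39 and 1.80 CPM per kb. The neuronal partners of KCNJ3 were scarce: KCNJ6 stayed at or below 0.349 CPM, and KCNJ9 had 1 count in all. The sum of the 6 cardiac and skeletal muscle markers moved in the same order. It was 24.5 and 62.6 CPM in iPSCs and 6.35 CPM in iNSLCs, against 0.972 CPM in fibroblasts, mostly from MYH6. TNNT2 and ACTN2 were also highest in the clones. The skeletal markers were not: MYOG was highest in iNSLCs (0.454 CPM) and MYOD1 in fibroblasts (0.0864 CPM). MYH7 was at 0 in every library. KCNJ3 and KCNJ5 were each higher in clone 2, as was the sum of these markers, although MYOD1 was lower there. The part of these markers in the result was not tested.

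KCNJ2 (chr12:10351715-10362244), a strong inward rectifier that holds the resting potential of muscle, had the reverse order. Its level was 7.09 and 6.69 CPM in iPSCs and 7.92 CPM in iNSLCs, against 63.7 CPM in fibroblasts. It was 9.24-fold lower in iPSCs than in fibroblasts (log2 ratio -3.21 ± 0.16 SE, edgeR adjusted p = 0.000608) and did not differ from iNSLCs beyond the spread (edgeR adjusted p = 0.428). KCNJ12 and KCNJ14, which belong to the same subfamily, went against it. KCNJ12 had 1.27 and 1.22 CPM in iPSCs and 1.5 CPM in iNSLCs, against 0 CPM in fibroblasts. It was 19.2-fold higher in iPSCs with fibroblasts held at 3 counts (edgeR adjusted p = 0.00808). KCNJ14 was 8.82-fold higher in iPSCs than in fibroblasts (edgeR adjusted p = 0.00884). KCNJ4 had 1.27 and 0.634 CPM in iPSCs, 0 CPM in iNSLCs and 0.324 CPM in fibroblasts, and was not called by edgeR (adjusted p = 0.168 against fibroblasts and 0.0678 against iNSLCs), while DESeq2 called it higher in iPSCs than in iNSLCs.

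KCNJ8 forms the ATP-sensitive potassium channel of vascular muscle with ABCC9, a sulfonylurea receptor that lies outside the set. KCNJ8 had 1.10 and 1.22 CPM in iPSCs and 2.27 CPM in iNSLCs, against 4.69 CPM in fibroblasts (4.04-fold lower in iPSCs than in fibroblasts, edgeR adjusted p = 0.00922, not called by DESeq2). ABCC9 had 0.338 and 0.525 CPM in iPSCs and 21.4 CPM in iNSLCs, against 34.1 CPM in fibroblasts. ABCC9 was therefore 79.0-fold lower in iPSCs than in fibroblasts (edgeR adjusted p = 0.000531) and 49.6-fold lower than in iNSLCs (edgeR adjusted p = 0.00336). The other receptor, ABCC8, known from beta cells and neurons, had 4.31 and 6.01 CPM in iPSCs and 8.38 CPM in iNSLCs, against 0.0432 CPM in fibroblasts.

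All 8 tandem-pore domain channels at 1 CPM were called against fibroblasts, 4 higher and 4 lower in iPSCs. Among the 9 tested in this class, 44.4% were higher and 44.4% lower, beside 29.6% and 28.2% of all genes. These channels pass the background potassium current. KCNK1 had 29.8 and 23.3 CPM in iPSCs and 18.8 CPM in iNSLCs, against 2.51 CPM in fibroblasts (10.6-fold higher in iPSCs than in fibroblasts, edgeR adjusted p = 0.00161). KCNK5 (chr7:34615259-34656739), an alkaline-activated channel, had 24.6 and 8.26 CPM in iPSCs and 11.8 CPM in iNSLCs, against 0.173 CPM in fibroblasts (95.2-fold higher in iPSCs than in fibroblasts, edgeR adjusted p = 0.0145). The clones lay on either side of iNSLCs for KCNK5, and no difference was called there. KCNK13, a channel inhibited by halothane, had 4.73 and 5.05 CPM in iPSCs and 1.75 CPM in iNSLCs, against 0.0864 CPM in fibroblasts. KCNK13 was 56.6-fold higher in iPSCs than in fibroblasts (edgeR adjusted p = 0.00241), from 4 counts in fibroblasts. It was 2.80-fold higher in iPSCs than in iNSLCs (edgeR adjusted p = 0.0474, not called by DESeq2).

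KCNK10 (chr7:110121263-110271481), a channel gated by stretch and lipids, was the clearest iNSLC gene of this class. Its level was 3.72 and 2.43 CPM in iPSCs and 22.5 CPM in iNSLCs, against 0 CPM in fibroblasts. It was 7.33-fold lower in iPSCs than in iNSLCs (edgeR adjusted p = 0.00948). Against fibroblasts held at 3 counts it was 47.4-fold higher in iPSCs (edgeR adjusted p = 0.00472). KCNK2, which belongs to the same subfamily, was 4.58-fold lower in iPSCs than in fibroblasts (edgeR adjusted p = 0.00744). KCNK12, the closest relative of KCNK13, had 2.66 and 1.29 CPM in iPSCs and 1.26 CPM in iNSLCs, against 8.47 CPM in fibroblasts (4.29-fold lower in iPSCs, edgeR adjusted p = 0.0155). Both pairs of close relatives therefore split, with KCNK10 and KCNK13 higher and KCNK2 and KCNK12 lower in iPSCs than in fibroblasts.

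KCNK6, a relative of KCNK1, had 2.66 and 3.06 CPM in iPSCs and 0.209 CPM in iNSLCs, against 6.07 CPM in fibroblasts. It was 13.7-fold higher in iPSCs than in iNSLCs (edgeR adjusted p = 0.0207). KCNK7, which is thought not to pass current by itself, had 0.465 and 0.0874 CPM in iPSCs and 0.0698 CPM in iNSLCs, against 1.25 CPM in fibroblasts. Both were lower in iPSCs than in fibroblasts (2.12-fold for KCNK6 and 4.54-fold for KCNK7, edgeR adjusted p = 0.0356 and 0.0286), calls that were made neither by DESeq2 nor with total counts. KCNK6 overlaps YIF1B on the opposite strand.

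Of the 25 alpha subunits of voltage-gated potassium channels at 1 CPM, iPSCs had 16 higher and 3 lower than fibroblasts, and 9 had no count in fibroblasts. The class summed to 121 and 145 CPM in iPSCs and 99.4 CPM in iNSLCs, against 53.9 CPM in fibroblasts. The highest levels belonged to electrically silent subunits, which do not form channels by themselves but modify others such as KCNB2. KCNS3 (chr3:119951097-119989366) had 39.7 and 49.5 CPM in iPSCs and 17.5 CPM in iNSLCs, against 1.86 CPM in fibroblasts. KCNS3 was higher in iPSCs than in fibroblasts (24.0-fold, edgeR adjusted p = 0.000815) and iNSLCs (2.54-fold, edgeR adjusted p = 0.0201). KCNF1 (chr3:125664365-125665879) had 13.5 and 8.85 CPM in iPSCs, 0.140 CPM in iNSLCs and 0.130 CPM in fibroblasts. KCNF1 was therefore near its floor outside the clones, with an 80.1-fold difference from iNSLCs (log2 ratio 6.27 ± 0.74 SE, edgeR adjusted p = 0.0117) and an 86.3-fold difference from fibroblasts (edgeR adjusted p = 0.00285).

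KCNG3, another silent subunit, had 3.08 and 2.34 CPM in iPSCs and 0.0698 CPM in iNSLCs, against 0 CPM in fibroblasts. Its iPSC to iNSLC count ratio was 37.1 (95% counting interval 10.1 to 309, edgeR adjusted p = 0.0222). KCNG3 was 41.8-fold higher in iPSCs with fibroblasts held at 3 counts (edgeR adjusted p = 0.00476). KCNV1, with 0.507 and 1.42 CPM in iPSCs and 0.0698 CPM in iNSLCs, against 0 CPM in fibroblasts, was called only against fibroblasts. KCNG1 was between 1.27 and 2.55 CPM in all libraries and was not called. The partner KCNB2 had 1.27 and 1.90 CPM in iPSCs and 1.88 CPM in iNSLCs, against 0 CPM in fibroblasts. It was 24.5-fold higher in iPSCs with fibroblasts held at 3 counts (edgeR adjusted p = 0.00872). Per kilobase, KCNS3 averaged 15.4 CPM and KCNF1 7.38 CPM in iPSCs.

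The KCNQ genes encode the M-current and its relatives. KCNQ3, a neuronal subunit, had 1.90 and 2.56 CPM in iPSCs and 0.279 CPM in iNSLCs, against 0 CPM in fibroblasts. KCNQ3 was 34.4-fold higher in iPSCs with fibroblasts held at 3 counts (edgeR adjusted p = 0.00546). It was 7.98-fold higher in iPSCs than in iNSLCs (edgeR adjusted p = 0.0381, not called by DESeq2). KCNQ5, which is also found in vascular muscle, had 1.60 and 2.69 CPM in iPSCs and 4.33 CPM in iNSLCs, against 24.8 CPM in fibroblasts (11.5-fold lower in iPSCs than in fibroblasts, edgeR adjusted p = 0.00196). KCNQ3 was thus higher and KCNQ5 lower in iPSCs than in fibroblasts. KCNQ1, the epithelial and cardiac member, was called against fibroblasts only with total counts.

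The KCNC genes serve fast-firing neurons. KCNC2 had 2.58 and 2.64 CPM in iPSCs and 6.25 CPM in iNSLCs, against 0 CPM in fibroblasts. KCNC2 was 40.3-fold higher in iPSCs with fibroblasts held at 3 counts (edgeR adjusted p = 0.00345). It was 2.39-fold lower in iPSCs than in iNSLCs (edgeR adjusted p = 0.0469, not called by DESeq2). KCNC1 had 0.127 and 0.284 CPM in iPSCs and 3.28 CPM in iNSLCs, against 0 CPM in fibroblasts, with an iNSLC to iPSC count ratio of 14.2 (95% counting interval 8.33 to 25.9, edgeR adjusted p = 0.0176). KCNC1 was thus highest in iNSLCs, while KCNC4 was 10.2-fold higher in iPSCs than in fibroblasts (edgeR adjusted p = 0.00478) and not called against iNSLCs.

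Of the ether-a-go-go family, KCNH8 had 2.79 and 2.67 CPM in iPSCs and 4.78 CPM in iNSLCs, against 0 CPM in fibroblasts. It was 42.1-fold higher in iPSCs with fibroblasts held at 3 counts (edgeR adjusted p = 0.00342). KCNH3, a brain member, had 7.14 and 7.91 CPM in iPSCs and 15.4 CPM in iNSLCs, against 0.389 CPM in fibroblasts. KCNH3 was 19.4-fold higher in iPSCs than in fibroblasts (edgeR adjusted p = 0.00179) and 2.05-fold lower than in iNSLCs (edgeR adjusted p = 0.0398, not called by DESeq2), and it overlaps MCRS1 on the opposite strand. KCNH6 had 0 and 0.0874 CPM in iPSCs and 1.78 CPM in iNSLCs, against 0 CPM in fibroblasts, with an iNSLC to iPSC count ratio of 30.9 (95% counting interval 11.4 to 118, edgeR adjusted p = 0.0180, not called by DESeq2). KCNH3, KCNH6 and KCNH8 were thus all highest in iNSLCs. KCNH2, the channel of cardiac repolarization, was 8.21-fold higher in iPSCs than in fibroblasts (edgeR adjusted p = 0.00698) and was not called between iPSCs and iNSLCs, and KCNH1 was called only with total counts.

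The Shaker and KCND genes split. KCNA6 had 1.98 and 4.35 CPM in iPSCs and 0.524 CPM in iNSLCs, against 9.76 CPM in fibroblasts, and KCND1 had 2.41 and 3.04 CPM in iPSCs and 1.26 CPM in iNSLCs, against 6.41 CPM in fibroblasts. Both were called lower in iPSCs than in fibroblasts (edgeR adjusted p = 0.0438 and 0.0285), but neither with total counts nor with DESeq2. KCNA4, KCNA5 and KCND2 were called higher in iPSCs than in fibroblasts, at no more than 1.71 CPM in any library, and KCNA7 was not called.

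**Figure D3:**
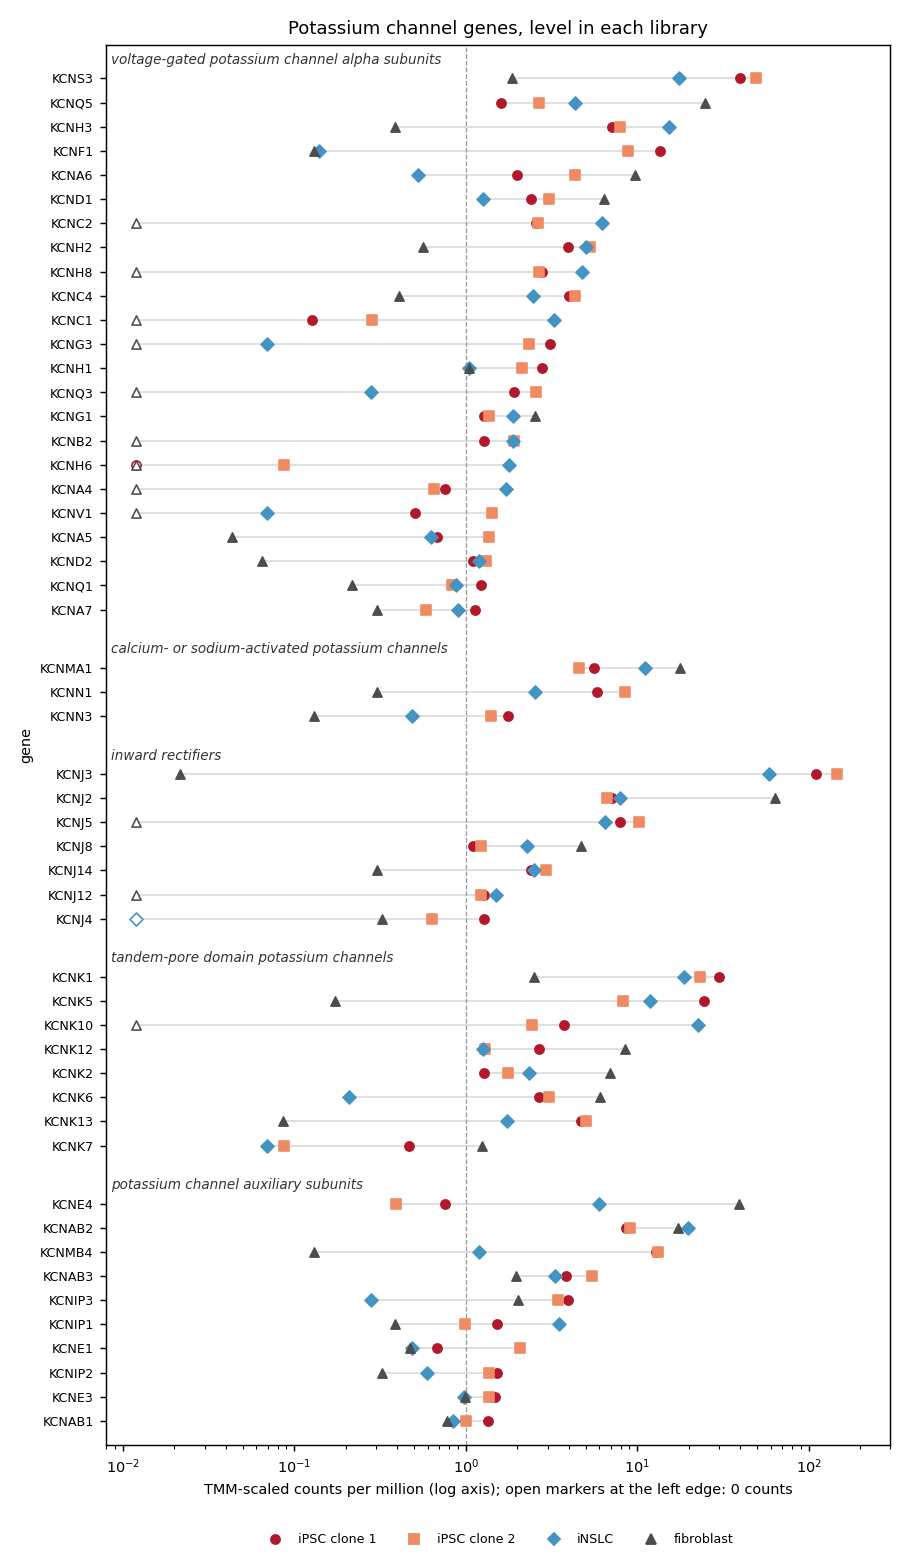
Level of each potassium channel gene reported here at 1 CPM or more in any library (x axis, TMM-scaled CPM, log axis, 1 row per gene grouped by role) in iPSC clone 1, iPSC clone 2, iNSLCs and fibroblasts. KCNJ3 spans a wide range, with 111 and 146 CPM in the clones and 0.0216 CPM in fibroblasts, while KCNE4 (39.0 CPM) and KCNJ2 (63.7 CPM) have their fibroblast marker at the right.

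The 3 calcium-activated potassium channels at 1 CPM were all called against fibroblasts. Among the 5 tested in this class, 60.0% were higher and 40.0% lower in iPSCs, beside 29.6% and 28.2% of all genes. KCNMA1, the large-conductance channel of smooth muscle and neurons, had 5.57 and 4.57 CPM in iPSCs and 11.1 CPM in iNSLCs, against 17.8 CPM in fibroblasts. It was 3.50-fold lower in iPSCs than in fibroblasts (edgeR adjusted p = 0.00440) and 2.18-fold lower than in iNSLCs (edgeR adjusted p = 0.0372, not called by DESeq2). The small-conductance gene KCNN1 had 5.79 and 8.48 CPM in iPSCs and 2.55 CPM in iNSLCs, against 0.302 CPM in fibroblasts (23.6-fold higher in iPSCs than in fibroblasts, edgeR adjusted p = 0.00407). KCNN3 had 1.77 and 1.40 CPM in iPSCs and 0.489 CPM in iNSLCs, against 0.130 CPM in fibroblasts (12.2-fold higher in iPSCs than in fibroblasts, edgeR adjusted p = 0.0135). The large- and small-conductance genes thus moved in opposite directions. KCNU1, a relative of KCNMA1 known from mouse sperm, had 0 CPM in iPSCs and iNSLCs, against 0.432 CPM, or 20 counts, in fibroblasts, and was called lower in iPSCs (edgeR adjusted p = 0.0394).

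Of the 10 auxiliary subunits of potassium channels at 1 CPM, iPSCs had 3 higher and 2 lower than fibroblasts. Among the 14 tested, 28.6% were higher and 14.3% lower, beside 29.6% and 28.2% of all genes. KCNMB4 (chr5:34561854-34632340), the neuronal beta subunit of the KCNMA1 channel, had 12.8 and 13.2 CPM in iPSCs and 1.19 CPM in iNSLCs, against 0.130 CPM in fibroblasts. It was 100-fold higher in iPSCs than in fibroblasts (log2 ratio 6.61 ± 0.43 SE, edgeR adjusted p = 0.000972), from 6 counts in fibroblasts. KCNMB4 was 11.0-fold higher in iPSCs than in iNSLCs (edgeR adjusted p = 0.00768). The pore KCNMA1 and its subunit KCNMB4 therefore had opposite orders across the 3 kinds of cells. The smooth muscle subunit KCNMB1 had 4 counts, all in fibroblasts.

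KCNE4 (chr15:124911922-124918536), which inhibits KCNQ1 and other channels, had 0.760 and 0.393 CPM in iPSCs and 6.00 CPM in iNSLCs, against 39.0 CPM in fibroblasts. It was 67.5-fold lower in iPSCs than in fibroblasts (log2 ratio -6.20 ± 0.32 SE, edgeR adjusted p = 0.000669) and 10.4-fold lower than in iNSLCs (edgeR adjusted p = 0.00994). KCNE4, CACNA1C, SCN3A and KCNMA1 were the described genes called lower in iPSCs than in both other cells, beside KCNAB2. The fibroblast markers, at 853 and 876 CPM in iPSCs, 52592 CPM in iNSLCs and 137288 CPM in fibroblasts, moved in the order of KCNE4, CACNA1C and KCNMA1, and their part in these results was not tested.

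KCNAB2, a beta subunit of Shaker channels, had 8.66 and 9.07 CPM in iPSCs and 19.7 CPM in iNSLCs, against 17.4 CPM in fibroblasts. It was lower in iPSCs than in fibroblasts (1.96-fold, edgeR adjusted p = 0.0132, not called with total counts) and iNSLCs (2.22-fold, edgeR adjusted p = 0.0209), and it overlaps CHD5 and NPHP4 on the opposite strand. KCNAB3 had 3.84 and 5.44 CPM in iPSCs and 3.32 CPM in iNSLCs, against 1.97 CPM in fibroblasts (2.36-fold higher in iPSCs than in fibroblasts, edgeR adjusted p = 0.0472, not called by DESeq2). KCNIP3, a calcium sensor that binds KCND channels, had 3.93 and 3.45 CPM in iPSCs and 0.279 CPM in iNSLCs, against 2.03 CPM in fibroblasts. KCNIP3 was 13.2-fold higher in iPSCs than in iNSLCs (edgeR adjusted p = 0.0186) and was called against fibroblasts only with total counts. KCNIP2 was called higher in iPSCs than in fibroblasts (4.44-fold, edgeR adjusted p = 0.0297, not called by DESeq2), KCNIP1 only with total counts, and KCNE1, KCNE3 and KCNAB1 in neither comparison.

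Markers of neurons were highest in iNSLCs. The 8 neuron markers summed to 249 and 247 CPM in iPSCs and 677 CPM in iNSLCs, against 20.2 CPM in fibroblasts, with none at 0. Genes called lower in iPSCs than in iNSLCs and highest in iNSLCs were SCN1A, SCN3A, CACNA1E, CACNA1G, CACNA2D2, CACNG6, KCNAB2, KCNC1, KCNC2, KCNH3, KCNH6 and KCNK10. The others called lower, CACNA1C, KCNMA1 and KCNE4, were highest in fibroblasts. The part of the neuron markers in this was not tested. The genes called higher in iPSCs than in iNSLCs were KCNF1, KCNG3, CACNG8, KCNK6, KCNIP3, KCNMB4, KCNQ3, CACNA1H, CACNG7, KCNK13, KCNS3, CACNA1A, KCNJ3 and CACNA2D1.

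**Figure D4:**
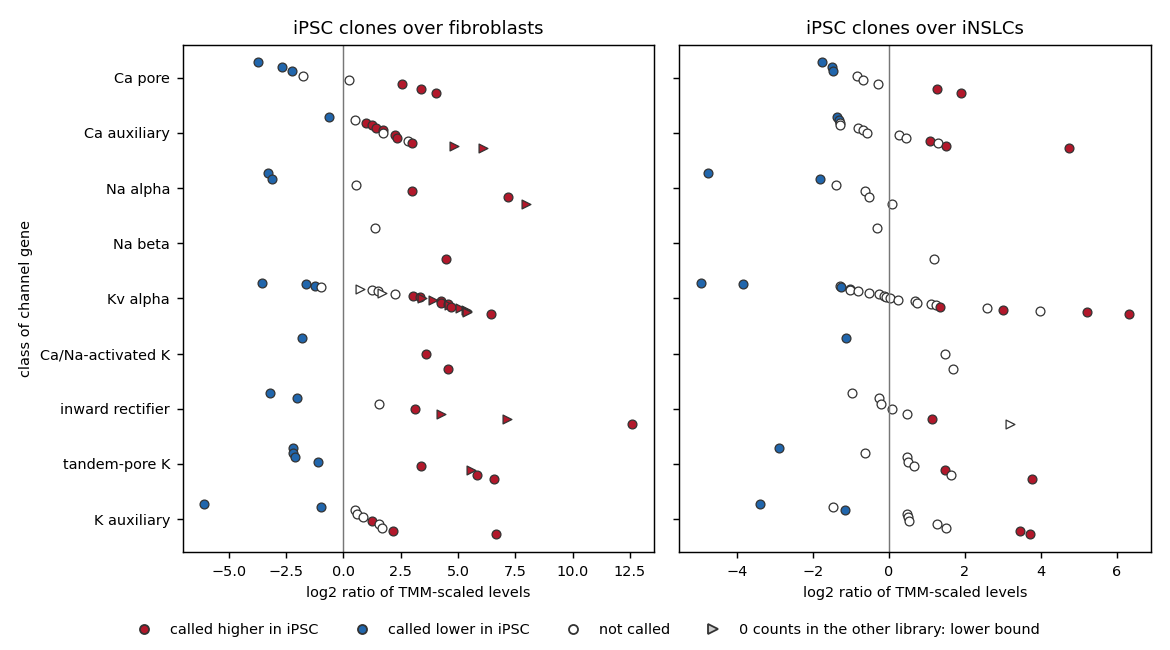
Log2 ratio of TMM-scaled levels of iPSC clones over fibroblasts (left) and over iNSLCs (right) for each gene reported here at 1 CPM or more, by class of channel. Filled points passed the edgeR test at an adjusted p of 0.05. Arrowheads are ratios against 0 counts, with that library held at 3 counts. Against fibroblasts the points reach far to both sides, as for KCNE4 (67.5-fold lower in iPSCs) and SCN1A (146-fold higher), while against iNSLCs most points are open.

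The clones were alike in most members. Of 76 members at 1 CPM in either clone, 0 were higher and 0 lower in clone 2 than in clone 1 by 4-fold or more, beside 0.174% and 1.23% of 13214 genes. Of 81 described members with a ratio, 58 lay within 1.5-fold. The ratio left 1 outside its 95% counting interval, which covers counting error only, in 21 members higher and 12 lower in clone 2. The clearest was KCNK5, with 8.26 CPM in clone 2 and 24.6 CPM in clone 1 (ratio 0.336, 95% counting interval 0.294 to 0.383). KCNE1, the partner of KCNQ1, had 2.08 CPM in clone 2 and 0.676 CPM in clone 1 (ratio 3.07, 95% counting interval 1.80 to 5.59). KCNA6 and CACNA2D4 also differed between the clones, with ratios of 2.19 and 0.467, so the pair of clones gives an imprecise level for these genes.

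Genes that work beside the channels were read from a list of 85 partners, pumps and calcium stores outside the set, of which 77 were found and 71 tested. Against fibroblasts, 36 were higher and 16 lower in iPSCs, or 50.7% and 22.5% of those tested, beside 29.6% and 28.2% of all genes. Against iNSLCs, 16 were higher and 10 lower (5 with DESeq2), or 22.5% and 14.1%, beside 13.2% and 14.2% of all genes, so that the share lower was near that of all genes. ANK3, the ankyrin that anchors sodium channels at the axon initial segment, had 128 and 125 CPM in iPSCs and 99.8 CPM in iNSLCs, against 2.61 CPM in fibroblasts (48.2-fold higher in iPSCs than in fibroblasts, edgeR adjusted p = 0.000396). GEM, a small GTPase that inhibits calcium channels, had 46.1 and 45.3 CPM in iPSCs and 3.04 CPM in iNSLCs, against 3.28 CPM in fibroblasts. It was higher in iPSCs than in fibroblasts (13.9-fold, edgeR adjusted p = 0.000629) and iNSLCs (15.1-fold, edgeR adjusted p = 0.00333).

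REM1, a GTPase of the same family, had 0.676 and 1.31 CPM in iPSCs and 0.489 CPM in iNSLCs, against 44.1 CPM in fibroblasts (44.3-fold lower in iPSCs than in fibroblasts, edgeR adjusted p = 0.000829). GEM and REM1 thus stood in opposite order in iPSCs and fibroblasts. DPP10, a partner of KCND channels, had 5.32 and 6.30 CPM in iPSCs and 11.0 CPM in iNSLCs, against 0 CPM in fibroblasts. It was 89.6-fold higher in iPSCs with fibroblasts held at 3 counts (edgeR adjusted p = 0.00168). The pacemaker gene HCN4 had 3.76 and 6.21 CPM in iPSCs and 9.77 CPM in iNSLCs, against 0.302 CPM in fibroblasts (16.5-fold higher in iPSCs than in fibroblasts, edgeR adjusted p = 0.00729). HCN2, by contrast, was 2.33-fold lower in iPSCs than in fibroblasts (edgeR adjusted p = 0.0167).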

How the data were processed

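RNA sequencing libraries of porcine iPSCs (n = 2 clones), iNSLCs (n = 1) and fibroblasts (n = 1) were analysed from the deposited table of read counts and exon lengths. According to the submitters' processing notes, Trim Galore 0.4.0, STAR 2.5.3a and featureCounts 1.5.2 were used, and the deposited counts, on Sscrofa11.1, were whole and not normalized. Groups came from the labels. Genes were named by Ensembl identifier, or by position where 1 RefSeq gene of the same assembly covered at least 80% of the row.

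Counts were scaled by TMM and tested over all 4 libraries in 3 groups with the edgeR 4.0.16 quasi-likelihood F test (R 4.3.3, two-sided, filterByExpr, Benjamini-Hochberg over 15739 genes, threshold 0.05), which was tested on simulated counts. SE is the log2 ratio divided by the root of F. With 1 library a side, ratios of at least 4-fold with the higher library at 1 CPM were counted. Folds hold libraries under 3 counts at 3 counts. Against 0 counts in fibroblasts they use the mean of the clones, so they are not lower limits. Where the lower group had 1 to 3 counts in a library, ratios are of pooled counts. Intervals are exact conditional binomial and, like the floors, cover counting error only.

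Members at 1 CPM in any library are named, except some that are not reported here; counts and sums hold every member. Levels are given for up to 4 members per class with the highest level, and for the 10 highest and 10 lowest called ratios per comparison; values of other genes shown were chosen after they were seen. The members, classes, markers and partner list were chosen with earlier results of these data known. Just inside the limit of 1 CPM were SCN4B (1.01 CPM), KCNA7 (1.14 CPM) and KCNQ1 (1.22 CPM), and just outside KCNN2 (0.929 CPM), KCNMB2 (0.838 CPM) and KCNH7 (0.768 CPM). Alternatives were RLE and total-count scaling, another filter, DESeq2 1.42.0, names by identifier alone, only the compared groups, and each clone left out. The earlier edgeR quasi-likelihood method and leaving out members that overlap opposite-strand genes were added after seeing the data.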

Additional observations from a re-analysis of the deposited data

How the results depend on the processing

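The number of members higher in iPSCs stayed within 1.5 times of 49 against fibroblasts and of 14 against iNSLCs under every alternative run. The numbers lower in iPSCs, 19 against fibroblasts and 15 against iNSLCs, were 12 and 9 with DESeq2. Over all genes, the shares lower were 28.2% and 14.2% with edgeR, and 23.2% and 10.4% with DESeq2. With a clone left out no residual degree of freedom remained, and the numbers at least 4-fold lower were 10 to 12 against fibroblasts and 5 to 6 against iNSLCs, counted by size with no test. Between iNSLCs and fibroblasts, 11 members were higher and 7 lower when 10 CPM was required in the higher library. With total counts, 8 were lower there. The shares of all genes under these rules were not counted. No direction reversed. With total counts, 8 further described members were called and 6 lost against fibroblasts, with DESeq2 10 were lost, with the earlier edgeR method 1 was gained and 4 lost, and without the filter 2 were lost. Depth limits genes below about 1 CPM, which is 23.7 counts in iPSC clone 1. No paired analysis was possible because the groups share fewer than 2 replicate numbers.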

Other observations

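The 50 members under 1 CPM in every library added little. Of them, 20 entered the edgeR test, and 4 were called against fibroblasts: KCNN2, KCNH7 and KCNMB2 higher and KCNU1 lower in iPSCs. Of members on chromosomes, CACNG1, KCNJ1, KCNE2, KCNK16, KCNK17, KCNK18 and KCNA10 had no count in any library. CACNA1B, KCNT1 and KCNT2 also had none, but they lie on unplaced scaffolds, where no row of the table held a count, and their levels are unknown. KCNN2, a small-conductance calcium-activated channel, had 0.929 and 0.809 CPM in iPSCs and 0.873 CPM in iNSLCs, against 0.194 CPM in fibroblasts (edgeR adjusted p = 0.0496).

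Members with no more than 1 Mb between them formed 22 groups that held 57 of the 134 genes. Besides the sodium channel cluster, CACNA1C and CACNA2D4 are neighbours on chromosome 5 and differed in order: CACNA1C was lower and CACNA2D4 higher in iPSCs than in fibroblasts. On chromosome 13, CACNA1D had 1.82 and 1.51 CPM in iPSCs and 2.02 CPM in iNSLCs, against 10.6 CPM in fibroblasts, and its neighbour CACNA2D3 had 1.82 and 1.95 CPM in iPSCs and 4.57 CPM in iNSLCs, against 0.691 CPM in fibroblasts. On chromosome 7, KCNK5 was expressed in iPSCs and iNSLCs while its neighbours KCNK16 and KCNK17 had no count.

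Among partners of the channels, JPH1, JPH3 and JPH4 encode junctophilins, which tie the calcium store to the surface membrane. JPH3 had 9.88 and 12.0 CPM in iPSCs and 0.593 CPM in iNSLCs, against 1.36 CPM in fibroblasts, and was higher in iPSCs than in fibroblasts (8.05-fold, edgeR adjusted p = 0.00328) and iNSLCs (18.5-fold, edgeR adjusted p = 0.00860). JPH1 had 29.6 and 24.4 CPM in iPSCs and 6.91 CPM in iNSLCs, against 0.561 CPM in fibroblasts (48.1-fold higher in iPSCs than in fibroblasts, edgeR adjusted p = 0.000830; 3.91-fold higher than in iNSLCs, edgeR adjusted p = 0.0129). JPH4 had 7.31 and 8.66 CPM in iPSCs and 3.46 CPM in iNSLCs, against 0.259 CPM in fibroblasts, and was called higher against fibroblasts (30.8-fold, edgeR adjusted p = 0.00200) but not against iNSLCs (edgeR adjusted p = 0.0540). The sodium-calcium exchanger SLC8A3 had 4.43 and 2.03 CPM in iPSCs and 11.1 CPM in iNSLCs, against 66.1 CPM in fibroblasts (20.4-fold lower in iPSCs than in fibroblasts, edgeR adjusted p = 0.00200).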
